A study of Mus musculus with 8 samples.

Results

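Glutathione transferases (GST), microsomal glutathione transferases (MGST), sulfotransferases (SULT) and UDP-glucuronosyltransferases (UGT) attach glutathione, sulfate or a sugar to drugs, lipids, steroids and bile pigments. Members were all genes whose symbol starts with Gst and a class letter, with Mgst, with Sult or with Ugt followed by a number, and that had a probe set with 1 gene symbol. This gave 44 of the 17097 genes measured: 16 GST, 3 MGST, 13 SULT and 12 UGT genes. Expression was measured on 8 single-channel 3' arrays of mouse cells, 1 array per sample. Mouse embryonic fibroblasts (MEF, n = 2) came from C57/B6 embryos at day 13.5, with head and organs removed per 1 array's label. Primary hepatocytes (PH, n = 3) were isolated by collagenase perfusion from male C57/B6 mice aged 8 to 10 weeks and were then cultured in the medium used for the lines. The array without a number in its title is called PH 3. Induced hepatocyte-like (iHep) lines are fibroblasts transduced with retroviruses carrying liver transcription factors. They were profiled at passage 10, with 1 array for each factor set. Line 4a3 carried Hnf4a and Foxa3. Line 4a3CK carried Hnf4a, Foxa3, c-Myc and Klf4, and line 4a1CK carried Hnf4a, Foxa1, c-Myc and Klf4. That medium holds dexamethasone, nicotinamide, insulin and growth factors, and the lines were grown on collagen.

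Conjugation is the second phase of xenobiotic metabolism. The transferases make reactive or fat-soluble molecules more soluble, and transporters then carry the conjugates into bile or blood. Most GST and SULT enzymes work in the cytosol. MGST and UGT enzymes sit in membranes, the UGTs facing the lumen of the endoplasmic reticulum. The hepatocyte is the main site of this work in the body, and many members are used as signs of a mature liver cell.

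Values are log2 signals, so a difference of 1 is a doubling. A gene was called where its adjusted p (limma, Benjamini-Hochberg over all genes) was under 0.05 and its log2 difference was at least 1. No source says whether arrays of a group are separate animals or cultures, and p-values reflect the spread among these 8 arrays alone, which may be technical. The 3 comparisons share arrays and are not independent. The arrays were not on 1 level: PH 3 had a median of 5.06, the other arrays 4.23 to 4.45. Whether all 8 arrays were normalized in 1 run is not given in the sources used here, so differences that rest on PH 3 may hold its level. Over all genes the median difference was 0.25 for PH against MEF and 0.16 for iHep against MEF. PH 1 and PH 2 were closer to each other (SD of their differences 0.159) than either was to PH 3 (0.549 and 0.548) or the MEF arrays to each other (0.570). The mean of 10 hepatocyte markers was 10.20, 10.15 and 10.47 on the PH arrays, and 4.31 and 4.30 on the MEF arrays. It was 7.78, 7.41 and 4.96 in 4a3, 4a3CK and 4a1CK. Hnf4a, 1 of the 10, was also transduced into the lines and was at 6.04, 9.59 and 5.50 in them. Whether its probe set reads the transduced copy was not tested. The mean of 9 fibroblast markers was 10.06 and 9.04 in MEF, and lay between 3.91 and 4.79 on the other arrays. Alb, the serum albumin gene, was at 3.80 in 4a3CK and 4.01 in 4a1CK, against 9.30 in 4a3. Their albumin lay under 4.09, the value below which 40 percent of all values fell and which is called dim here.

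Of the 44 members, 12 rose in PH against MEF and 0 fell, or 27.3% called against 5.85% of all genes (3.37% higher and 2.47% lower). In the limma fit at an unadjusted p under 0.05, 15 members were higher and 1, Gsto1, was lower. Of all 17097 genes, 1823 were higher and 973 lower at that threshold. The called genes were 6 GST genes, 1 SULT gene and 5 UGT genes. The median difference over all 44 was 0.55, against 0.25 over all genes, and without PH 3 it was 0.25 against 0.01. On 25 members every PH array was above both MEF arrays and on 1 every PH array was below them, where 38.0% of all genes had groups that did not overlap. Fewer members were called without MEF 1 or without MEF 2, each of which leaves 1 MEF array. The share of all genes called in those fits is not given here, so the drop is not shown to concern the members.

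In the iHep lines against MEF, 3 members rose (Gsta2, Gsta4 and Mgst2) and 0 fell, or 6.82% against 6.45% of all genes, with 1.98% of all genes higher and 4.47% lower. In limma at an unadjusted p under 0.05 the counts were 8 higher and 1 lower. Over all 17097 genes they were 1709 higher and 1859 lower. The share called was thus near that of all genes. Groups did not overlap for 22 members higher and 3 lower in the lines, where 60.9% of all genes did not overlap. Fewer members were called without MEF 1, which leaves 1 MEF array, and 5 were called without line 4a1CK or without PH 3. The share of all genes called in those fits is not given here. These changes are thus not shown to concern the members.

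Against PH, 11 members were lower in the lines and 2, Gsto1 and Mgst2, were higher, or 29.5% against 7.13% of all genes (1.49% higher and 5.64% lower). The lower genes were 6 GST genes and 5 UGT genes. On 18 members every line was below every PH array and on 3 above, against 26.3% of all genes without overlap. The median difference of the members was -0.29, against -0.09 over all genes. It was -0.08 against 0.15 without PH 3, and -0.44 without PH 1. In bulk RNA, fewer cells of a type and less RNA per cell cannot be told apart. The hepatocyte markers moved with these groups: 9 of 10 were called higher in PH than in MEF, 1 of 10 higher in the lines than in MEF and 5 of 10 lower in the lines than in PH. Fibroblast markers were called lower in PH (8 of 9) and in the lines (7 of 9) than in MEF. Macrophage markers were called lower than in MEF for 2 of 6 in PH and 2 of 6 in the lines, with 1 of 6 lower in the lines than in PH. Stellate markers were called lower than in MEF for 1 of 5 in PH and 2 of 5 in the lines. Of 5 bile duct markers, Krt19 was called higher in the lines than in MEF (5.03) and in PH (2.81), and 0 of 5 liver endothelium markers were called. The part of these marker genes in the transferase values was not tested.

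**Figure D1:**
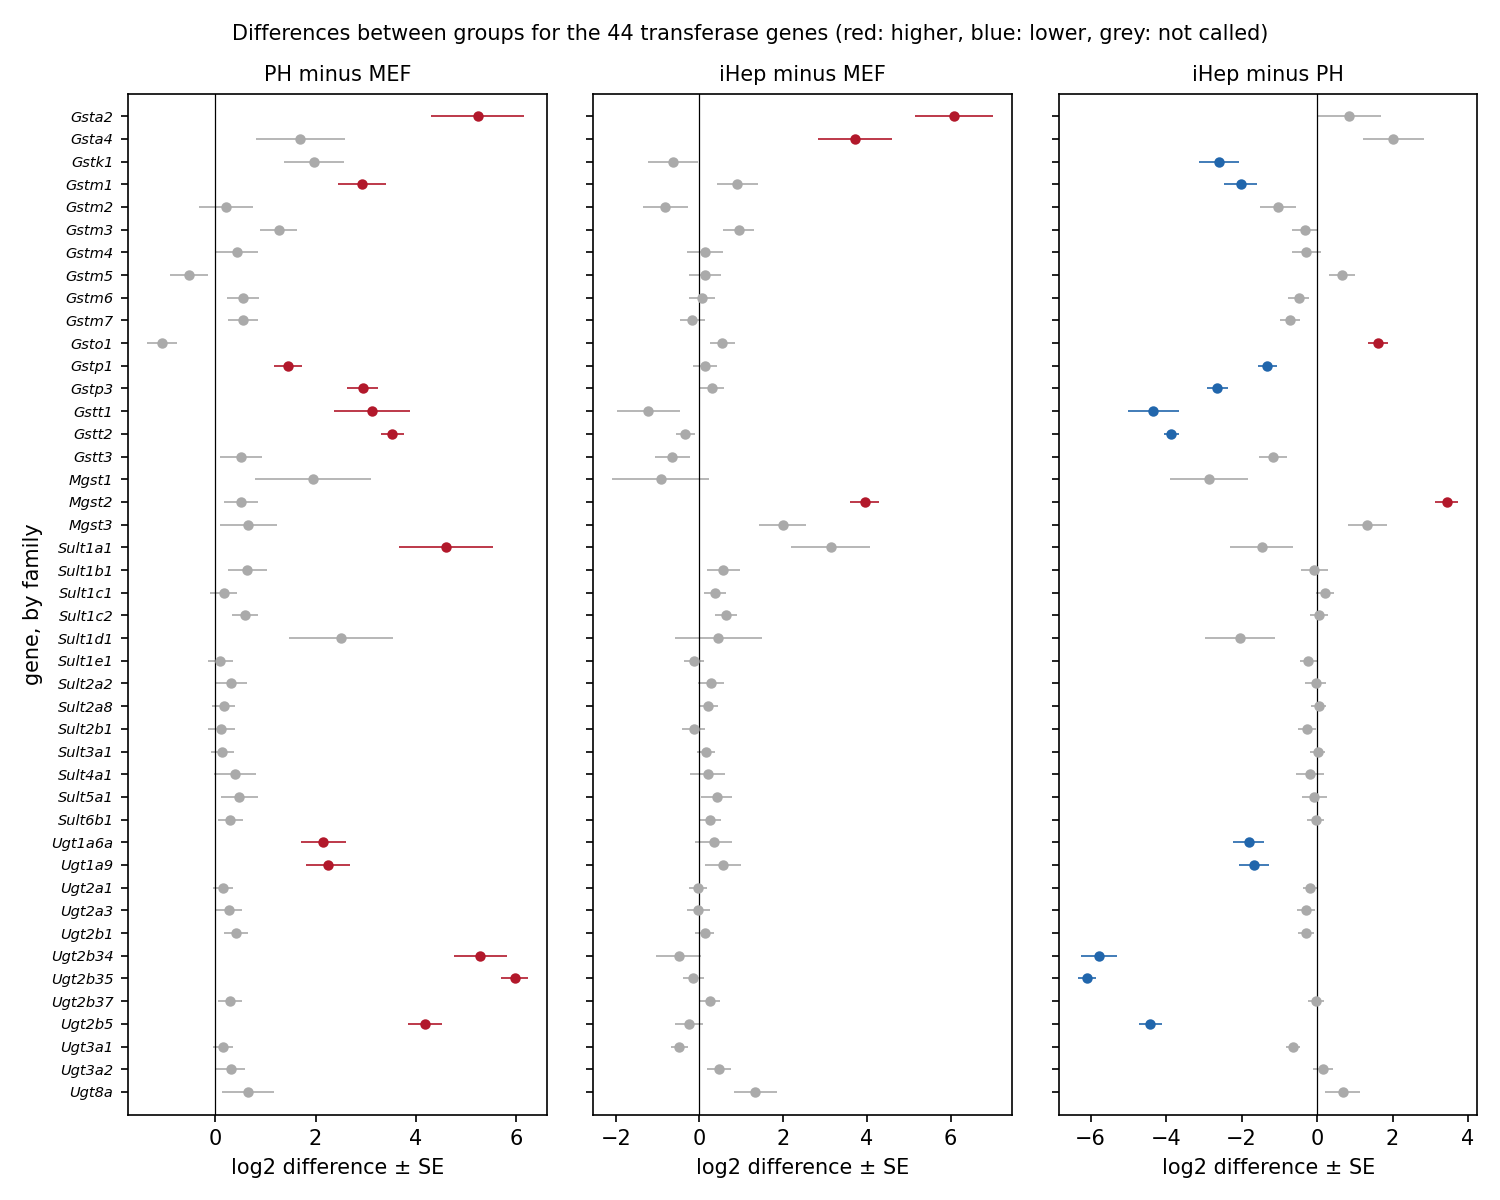
Log2 difference with its standard error for each of the 44 transferase genes for PH minus MEF, iHep minus MEF and iHep minus PH, with called genes in red where higher and in blue where lower and all others in grey. The 12 genes called in PH against MEF are all on the right of 0, while 3 are called in iHep against MEF and the largest negative values in iHep against PH are those of Ugt2b35, Ugt2b34, Ugt2b5 and Gstt1.

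The arrays were deposited in a pair of accession ranges. One holds MEF 2, the 3 lines and PH 3, and the other holds MEF 1, PH 1 and PH 2. Every called member had groups that did not overlap, so the sign of its difference within a range was fixed in advance. The size was not fixed. All 12 members called in PH against MEF had a difference of at least 1 within each range. The smallest was 1.62 in the first range and 1.41 in the second. The lines are in the first range alone, where all 3 calls against MEF and all 13 against PH kept a size of at least 1. With the range as a block, the counts were 12, 2 and 10. The block ended the call of Gsta4 against MEF (3.31, adjusted p = 0.129) and those of Gstm1 (-1.72, 0.103), Ugt1a6a (-1.78, 0.0902) and Ugt1a9 (-1.84, 0.0736) in the lines against PH. No other member's call was lost with this block.

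Since PH 1 and PH 2 were so close, they were also averaged as 1 array, which gave counts of 9, 2 and 9. The calls lost were Gstt1 (adjusted p = 0.129), Sult1a1 (0.0504) and Ugt1a6a (0.0705) in PH against MEF and Gsta4 (0.0712) in the lines against MEF. In the lines against PH, they were Gstm1 (0.0784), Gstp1 (0.0525), Ugt1a6a (0.0871) and Ugt1a9 (0.0844).

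UGT enzymes transfer glucuronic acid, and the 2B enzymes act on steroids, bile acids and drugs. Ugt2b35, Ugt2b34 and Ugt2b5 had the largest iHep minus PH differences of all members: at least 6.98 on all PH arrays, and at most 5.00 in MEF and in the lines. Ugt2b35 was at 3.43 and 3.55 in MEF, at 3.44, 3.22 and 3.39 in 4a3, 4a3CK and 4a1CK, and at 9.69, 9.65 and 9.03 in PH 1, PH 2 and PH 3. The lines thus overlapped the fibroblasts and did not approach the hepatocytes. The difference was 5.96 ± 0.26 for PH minus MEF (SE, adjusted p = 1.3e-05) and -6.10 ± 0.23 for iHep minus PH (adjusted p = 5.7e-06).

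Ugt2b5 was at 3.66 and 3.31 in MEF, at 3.26, 3.23 and 3.24 in the lines and at 8.16, 7.85 and 6.98 in PH. All MEF and line values were dim, and every PH array was above them. PH exceeded MEF by 4.18 ± 0.34 (adjusted p = 0.000217), and the lines were below PH by a difference of -4.42 ± 0.31 (adjusted p = 0.000131). Ugt2b34 was at 4.23 and 4.59 in MEF, at 5.00, 3.36 and 3.37 in 4a3, 4a3CK and 4a1CK, and at 9.99, 10.04 and 9.04 in PH. Line 4a3 was the line above the dim value. The probe set used is marked as able to bind several transcripts. A second Ugt2b34 probe set gave 3.33 and 3.18 in MEF, and 5.22, 3.34 and 3.37 in the lines. For iHep minus MEF it gave 0.72, against -0.50 on the probe set used, so that sign depended on the probe set. On the probe set used, PH minus MEF was 5.28 ± 0.53 (adjusted p = 0.000606) and iHep minus PH was -5.78 ± 0.48 (adjusted p = 0.000279). The second probe set gave 5.66 and -4.94. The calls of these 3 genes held with each array left out in turn.

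The 3 genes lie in 1 cluster on chromosome 5. In RefSeq order it runs Ugt2b34, Ugt2b1, Ugt2b35, Ugt2b5, Ugt2b37, Ugt2a3, Ugt2a1, Sult1b1, Sult1d1 and Sult1e1, 10 members in all. Their neighbours did not share the pattern. Ugt2b1, between Ugt2b34 and Ugt2b35, was at 3.84 and 3.95 in MEF, at 3.97 to 4.09 in the lines and at 4.14 to 4.63 in PH. Ugt2b37 and Ugt2a1 were at or under 4.09 on all 8 arrays, and Ugt2a3 passed it on PH 3 alone, at 4.34. None of these 4 neighbours was called in any comparison. A dim probe set gives no measure of how low a transcript is.

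**Figure D2:**
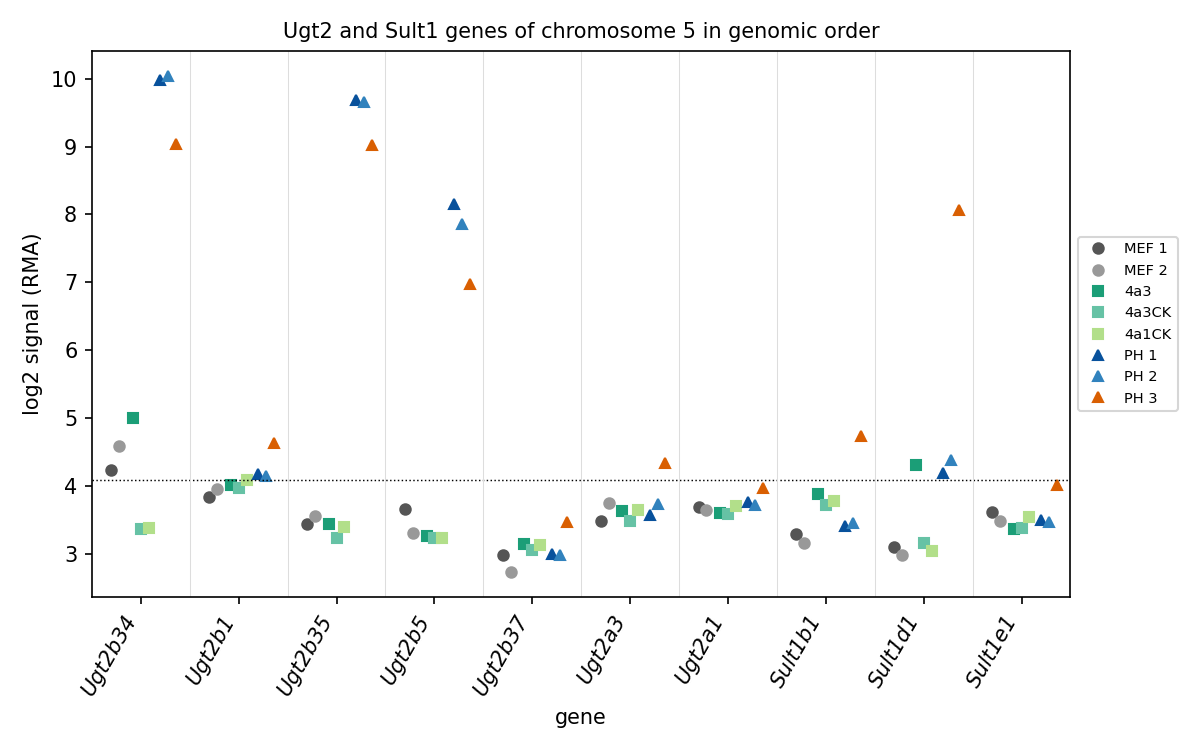
Log2 signal of the 10 transferase genes on chromosome 5, in their RefSeq order, on each array of MEF, iHep and PH, with points for arrays and a dotted line at the dim value of 4.09. Ugt2b34, Ugt2b35 and Ugt2b5 reach 6.98 to 10.04 on the PH arrays, and their neighbours Ugt2b1, Ugt2b37, Ugt2a3 and Ugt2a1 stay at or below 4.63 on every array.

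Ugt2b5 and Ugt2b37 are neighbours that differ in their probe set signals on the PH arrays. They are alike in the sequence before their start sites, which is why both are shown. The 250 bases upstream of the RefSeq start (GRCm38.p6) were identical at 73.0% of 274 aligned columns, and the other pairs of Ugt2b genes at 51.3% to 58.7%. Capitals mark the longest run of letters shared by both, 68 bases long. The Ugt2b5 window is chr5:87140341-87140590 and the Ugt2b37 window chr5:87254789-87255038, both on the minus strand and read 5′ to 3′.
Ugt2b5: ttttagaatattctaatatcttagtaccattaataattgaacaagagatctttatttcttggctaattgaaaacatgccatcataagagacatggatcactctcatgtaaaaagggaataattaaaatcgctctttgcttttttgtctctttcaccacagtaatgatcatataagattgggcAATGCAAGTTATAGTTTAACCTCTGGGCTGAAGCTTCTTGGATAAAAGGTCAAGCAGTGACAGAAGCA
Ugt2b37: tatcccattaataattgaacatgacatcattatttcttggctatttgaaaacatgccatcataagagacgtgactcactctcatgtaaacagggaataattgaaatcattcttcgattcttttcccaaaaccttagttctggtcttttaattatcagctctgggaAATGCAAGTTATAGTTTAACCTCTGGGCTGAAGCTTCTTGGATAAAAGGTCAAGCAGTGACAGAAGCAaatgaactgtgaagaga
The shared run starts at base -68 of Ugt2b5 and at base -85 of Ugt2b37, counted back from the start. Ugt2b5 was at 6.98 to 8.16 on the PH arrays, whereas Ugt2b37 was at 2.98 to 3.46 there. The Ugt2b37 probe set was dim on every array, and signals of different probe sets do not compare the amounts of their transcripts.

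UGT1A enzymes conjugate phenols, bilirubin and many drugs, and the genes share their last exons on chromosome 1 while each has its own first exon. A 3' array can therefore split them poorly, and Ugt1a6a and Ugt1a9 are uncertain as separate genes. Ugt1a6a was at 8.04 and 7.52 in MEF, at 8.60, 7.12 and 8.63 in the lines and at 9.77, 9.90 and 10.12 in PH. Line 4a3CK was below both fibroblast arrays, the other lines were above them, and PH was above all. Ugt1a6a was higher in PH than in MEF by 2.15 ± 0.45 (adjusted p = 0.0262) and lower in the lines than in PH (-1.81 ± 0.40, adjusted p = 0.0308). The first call was lost without any 1 of the MEF or PH arrays (adjusted p = 0.0673 to 0.185), and with quantile normalization (0.0553) or array medians subtracted (0.0595). The second was lost without PH 1 (0.0835), PH 2 (0.0931) or PH 3 (0.0513).

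Ugt1a9 was at 7.30 and 6.92 in MEF, at 8.15, 6.80 and 8.06 in the lines and at 9.04, 9.19 and 9.82 in PH. The order of the arrays was close to that of Ugt1a6a, with 4a3CK the lowest line. Its difference was 2.24 ± 0.44 for PH minus MEF (adjusted p = 0.0186) and -1.68 ± 0.39 for iHep minus PH (adjusted p = 0.0367). The first call was lost without MEF 1 (0.0784), MEF 2 (0.135), PH 2 (0.0508) or PH 3 (0.0702). The second was lost without MEF 1 or MEF 2 (0.0563 each), 4a3 (0.0536), PH 1 (0.0778), PH 2 (0.0927) or PH 3 (0.0562), and in a fit of the lines and PH alone (0.0563).

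The 2 promoters carry the core letters bound by HNF1 factors, liver and kidney transcription factors. Both promoters are shown because they carry these letters, so the match in them is not a separate result. The probe sets of these genes were high together in PH. Since the array splits these genes poorly, that signal cannot be assigned to either promoter. The letters searched were GTTAAT on both strands, in windows from 250 bases before to 50 after each RefSeq start (GRCm38.p6). Capitals mark the match, which is on the minus strand and so reads ATTAAC here. The windows shown are chr1:88134559-88134808 for Ugt1a6a and chr1:88070529-88070778 for Ugt1a9, on the plus strand.
Ugt1a6a: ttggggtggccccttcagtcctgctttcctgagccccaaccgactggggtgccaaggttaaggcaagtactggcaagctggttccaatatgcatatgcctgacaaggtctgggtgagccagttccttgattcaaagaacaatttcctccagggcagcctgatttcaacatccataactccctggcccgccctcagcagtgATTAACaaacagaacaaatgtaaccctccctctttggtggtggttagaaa
Ugt1a9: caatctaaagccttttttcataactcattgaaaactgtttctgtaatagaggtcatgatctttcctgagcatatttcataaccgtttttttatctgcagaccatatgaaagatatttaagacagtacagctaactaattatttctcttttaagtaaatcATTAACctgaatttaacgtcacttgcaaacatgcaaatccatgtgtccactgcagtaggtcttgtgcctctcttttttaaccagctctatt
The match starts at base -50 of Ugt1a6a and at base -91 of Ugt1a9. The letters were in 7.1% of all 32851 windows and in 6 of the 49 member windows (12.24%), those of Sult1a1, Sult1d1, Ugt1a6a, Ugt1a9, Ugt2a3 and Ugt3a1. Of these 6, Sult1a1, Ugt1a6a and Ugt1a9 were called higher in PH than in MEF, and Sult1d1, Ugt2a3 and Ugt3a1 were not. Of all 44 members, 12 were called higher there. Ugt1a6a and Ugt1a9 are uncertain as separate genes, so their calls may not be separate. Ugt2a3, dim on 7 of 8 arrays, had the letters at 2 places, and the windows of Ugt2b34, Ugt2b35 and Ugt2b5 had none. The core of the antioxidant response element, TGACNNNGC, was in 6.12% of member windows against 12.39% of all windows, and that of the xenobiotic response element, GCGTG, in 24.49% against 32.39%, again on both strands. A match describes the letters and is not a bound site.

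The remaining UGT genes were Ugt3a1, Ugt3a2 and Ugt8a. Ugt8a, which makes galactosylceramide in myelin-forming cells, was at 4.39 and 4.37 in MEF, at 5.70, 5.68 and 5.75 in the lines and at 4.40, 4.44 and 6.27 in PH. The lines were close to each other and PH 3 stood apart from the other hepatocyte arrays. The iHep minus MEF difference was 1.33 (adjusted p = 0.183), and it passed without PH 3 at an adjusted p of 0.000684. Ugt3a1 lay between 4.52 and 5.41 and Ugt3a2 between 3.70 and 4.55 on all arrays, and neither was called. Over the 12 UGT genes the median difference was 0.54 for PH minus MEF (0.24 without PH 3), with 5 called higher, and -0.46 for iHep minus PH, with 5 called lower. For iHep minus MEF the median was 0.05 with 0 called (limma; 1 higher and 1 lower at an unadjusted p under 0.05), and its sign turned with quantile normalization (-0.14) and with array medians subtracted (-0.14).

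The GST genes Gstt2, Gstt1, Gstp3 and Gstp1, of the theta and pi classes, were higher in PH than in both MEF and the lines. Gstt2, a theta enzyme that acts on sulfate esters, was at 3.91 and 3.70 in MEF, at 3.37, 3.62 and 3.42 in the lines and at 7.12, 7.45 and 7.43 in PH. Every MEF and line array was dim, and the PH arrays were close together far above them. PH minus MEF was 3.53 ± 0.22 (adjusted p = 7.46e-05) and iHep minus PH was -3.87 ± 0.20 (adjusted p = 3.53e-05). Gstp3, a pi class gene next to Gstp1 on chromosome 19, was at 4.12 in both MEF arrays, at 4.48, 4.27 and 4.48 in the lines and at 6.59, 6.96 and 7.62 in PH. The lines sat just above the fibroblasts and well below each hepatocyte array. PH exceeded MEF by 2.94 ± 0.31 (adjusted p = 0.000783), and iHep minus PH was -2.65 ± 0.27 (adjusted p = 0.00099). Both genes kept both calls with each array left out.

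Gstt1, the theta enzyme that acts on small halogenated compounds, was at 7.38 in MEF 1 and 4.20 in MEF 2, at 4.88, 4.42 and 4.40 in the lines and at 9.05, 9.08 and 8.59 in PH. The fibroblast arrays differed from each other by 3.19, the widest gap between them of any member, and the lines lay between them near the lower one. The iHep minus PH difference of -4.34 ± 0.67 (adjusted p = 0.00699) held with each array left out. PH minus MEF was 3.12 ± 0.75 (adjusted p = 0.0487). That call was lost without MEF 2, where it was 1.52 (adjusted p = 0.0742), and without 4a3 (0.0637), 4a1CK (0.0547), PH 1 (0.130), PH 2 (0.130) or PH 3 (0.124). It was also lost with quantile normalization (0.107), with array medians subtracted (0.113) and without probe sets that bind several transcripts (0.0512). Without MEF 2 the lines were lower than MEF by -2.82 (adjusted p = 0.00494), a call the 8 arrays did not give (-1.22 ± 0.75, adjusted p = 0.405).

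Gstp1, the main pi enzyme, was high in all cells: 10.57 and 10.73 in MEF, 11.22, 10.61 and 10.51 in the lines and 11.95, 11.99 and 12.35 in PH. Only the hepatocyte group stood clear, since the lines overlapped the fibroblasts. PH minus MEF was 1.45 ± 0.28 (adjusted p = 0.0175) and iHep minus PH was -1.32 ± 0.25 (adjusted p = 0.0161). The first call was lost without MEF 1 (0.142), MEF 2 (0.0902) or PH 2 (0.0515), and the second without 4a1CK (0.0620), PH 1 (0.0520) or PH 2 (0.0540).

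Mu class genes lie side by side on chromosome 3 in the order Gstm5, Gstm7, Gstm6, Gstm3, Gstm2, Gstm1 and Gstm4, and probes may be shared among these near copies. Gstm1, an abundant liver enzyme, was at 7.85 and 6.39 in MEF, at 8.57, 8.20 and 7.30 in the lines and at 10.11, 9.78 and 10.24 in PH. Line 4a1CK lay between the fibroblast arrays, 4a3 and 4a3CK above them, and PH above all. The differences were 2.92 ± 0.49 for PH minus MEF (adjusted p = 0.009) and -2.02 ± 0.44 for iHep minus PH (adjusted p = 0.0275). Its other 3 probe sets gave 1.08, 2.29 and 2.85 for PH minus MEF. For iHep minus PH they gave -0.22, -1.71 and -2.15 in the same order. The first call was lost without MEF 2 (0.0619) or PH 3 (0.0524), and the second without 4a1CK (0.0687), PH 1 (0.0921) or PH 2 (0.0696). No other mu gene was called in a comparison, although Gstm3 was at 5.84 and 5.49 in MEF, 6.72, 6.59 and 6.48 in the lines and 6.63, 6.45 and 7.69 in PH (PH minus MEF 1.26, adjusted p = 0.10). It passed with quantile normalization (1.03, adjusted p = 0.0194). Gstm5 was at 8.08 to 9.49 and Gstm6 at 3.30 to 4.50 on all arrays.

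Gstk1, the kappa enzyme of mitochondria and peroxisomes, was at 5.20 and 4.33 in MEF, at 3.92, 4.00 and 4.49 in the lines and at 6.12, 6.04 and 8.06 in PH. PH 3 was the highest hepatocyte array, and every line was below all of them. It was lower in the lines than in PH by a difference of -2.60 ± 0.53 (adjusted p = 0.0218), a call lost without 4a3 (0.0767). PH minus MEF was 1.97 ± 0.59 (adjusted p = 0.108).

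Gsta2 was the 1 GST gene called higher than MEF both in the lines and in PH. This alpha class gene, an inducible liver enzyme that reduces organic hydroperoxides, was at 3.84 and 4.63 in MEF, at 9.65, 11.61 and 9.69 in 4a3, 4a3CK and 4a1CK and at 10.58, 10.27 and 7.54 in PH. All lines and all hepatocyte arrays were above the fibroblasts, and the lines overlapped the hepatocytes. The difference from MEF was 6.08 ± 0.93 in the lines (adjusted p = 0.00728, a fold of 67.8) and 5.23 ± 0.93 in PH (adjusted p = 0.0123, a fold of 37.5). Within the accession ranges PH minus MEF was 2.91 in the first and 6.58 in the second. The call in the lines was lost without MEF 1 (0.0592). The call in PH was lost without MEF 1 (0.0986) or MEF 2 (0.0521), with quantile normalization (0.0518) and with array medians subtracted (0.0565).

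The Gsta2 probe set is marked as able to bind several transcripts, so near copies of Gsta2 may share it. Its second probe set read 3.02 and 3.28 in MEF, 3.90, 5.38 and 4.52 in the lines and 6.30, 6.04 and 4.96 in PH. There too the lines and PH were above MEF, and 4a3CK was the highest line. On this second probe set iHep minus MEF was 1.45, against 6.08 on the probe set used. For iHep minus PH it gave -1.17, against 0.85. The size of the rise and the sign against PH thus depended on the probe set. With the mean of both probe sets, Gsta2 rose by 3.77 in the lines (adjusted p = 0.0140) and by 3.92 in PH (adjusted p = 0.00923).

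Gsta4 clears hydroxyalkenals formed by lipid peroxidation. It was at 5.48 in MEF 1 and 8.43 in MEF 2, at 10.18, 12.03 and 9.81 in the lines and at 9.08, 8.76 and 8.11 in PH. Every line was above every hepatocyte array, and PH 3 was below MEF 2. Gsta4 rose by 3.72 ± 0.89 in the lines against MEF (adjusted p = 0.0445). That call was lost without MEF 1, where the difference was 2.24 (adjusted p = 0.260), without 4a3 (0.0820), 4a3CK (0.0596), PH 1 (0.0719) or PH 2 (0.0744). It was also lost with quantile normalization (0.0528), with array medians subtracted (0.0695) and in a fit of the MEF and line arrays alone (0.0919). The iHep minus PH difference was 2.02 ± 0.80 (adjusted p = 0.188) and the PH minus MEF difference 1.69 ± 0.89 (adjusted p = 0.431). Both alpha genes were highest in 4a3CK. The mean of 5 intestine and stomach markers was also highest there, at 9.20 against 6.05 in 4a3, 7.20 in 4a1CK and 4.89 to 5.76 in the other groups. Of these markers, Cdx2, Tff1 and Gkn2 were highest in 4a3CK. Vil1 and Muc13 were instead highest in 4a1CK (8.99 and 10.22) and lowest of the lines in 4a3CK (6.02 and 5.89). The part of those markers in the alpha class values was not tested.

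Gsto1, the omega enzyme that reduces dehydroascorbate and other thiol-linked substrates, ran the other way. It was at 11.12 and 11.26 in MEF, at 11.48, 12.16 and 11.58 in the lines and at 9.91, 9.94 and 10.53 in PH. The lines were highest and the hepatocytes lowest, with no overlap. The lines exceeded PH by 1.61 ± 0.27 (adjusted p = 0.00919), a call that held with each array left out. PH minus MEF was -1.06 ± 0.30 (adjusted p = 0.0857). Its second probe set gave -1.48 for that difference, and it passed with quantile normalization (-1.24, adjusted p = 0.0112) and with array medians subtracted (-1.33, adjusted p = 0.0137).

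Over the 16 GST genes the median difference was 1.35 for PH minus MEF with 6 called higher, and -0.88 for iHep minus PH with 6 called lower and 1 higher. For iHep minus MEF the median was 0.13 with 2 called higher, and it was 0.01 with quantile normalization and -0.06 with array medians subtracted. It was 0.30 without MEF 1, 0.03 without MEF 2, 0.07 without 4a1CK and -0.13 with the accession range as a block. Without probe sets that can bind several transcripts, which leaves 13 GST genes, the PH minus MEF median was 0.55.

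**Figure D3:**
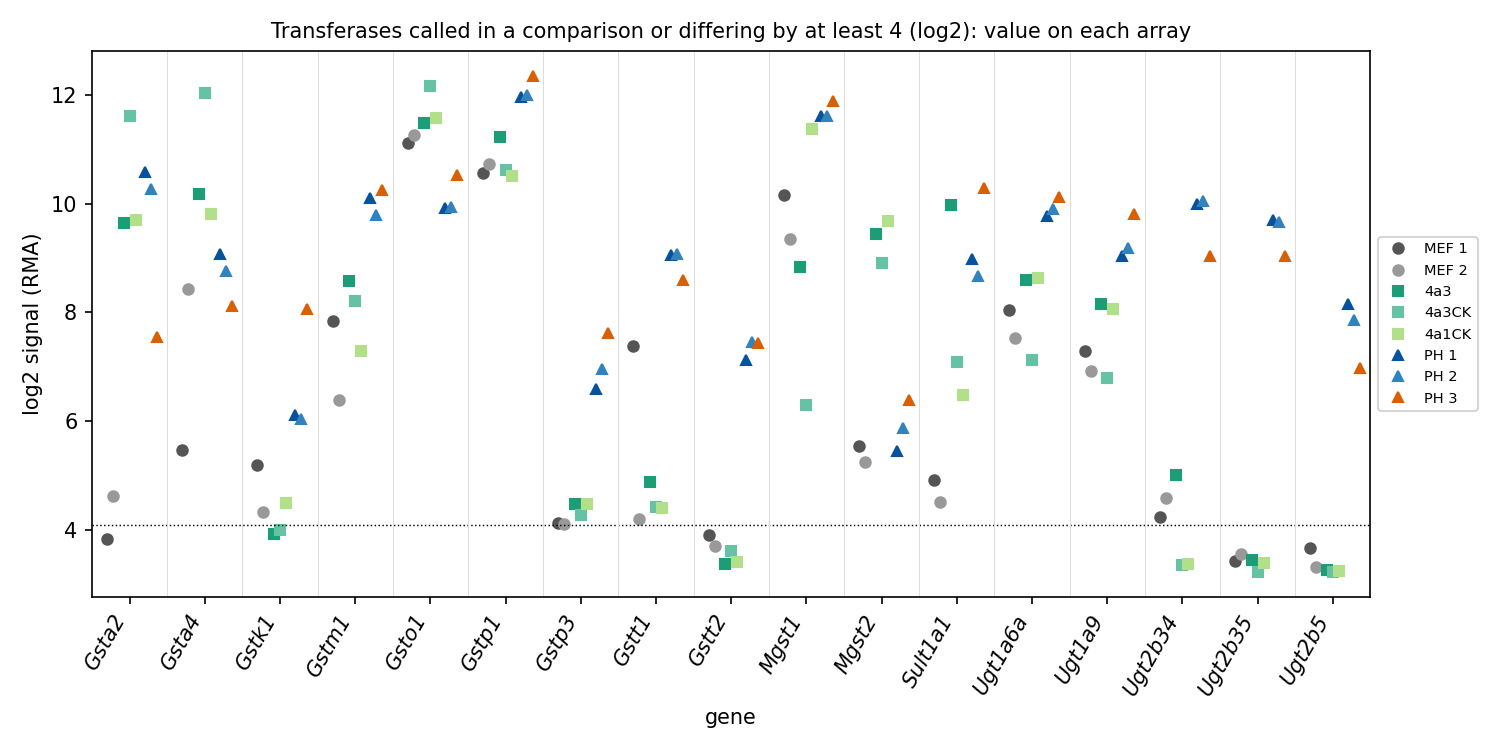
Log2 signal of 17 transferase genes on each of the 8 arrays, with circles for MEF, squares for the iHep lines, triangles for PH and a dotted line at the dim value of 4.09. Ugt2b35 is at 3.22 to 3.55 on every MEF and iHep array and at 9.03 to 9.69 on the PH arrays, while Mgst2 is at 8.90 to 9.68 in the lines and at 5.25 to 6.38 on the other arrays.

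Among the microsomal enzymes, Mgst2 was the clearest mark of the iHep lines. The enzyme can conjugate glutathione to leukotriene and lipid hydroperoxide substrates. Mgst2 was at 5.54 and 5.25 in MEF, at 9.44, 8.90 and 9.68 in 4a3, 4a3CK and 4a1CK and at 5.44, 5.87 and 6.38 in PH. All lines were above all arrays of both other groups, and PH overlapped MEF. It rose by 3.95 ± 0.34 against MEF (adjusted p = 0.000433) and by 3.44 ± 0.30 against PH (adjusted p = 0.000453), and both calls held with each array left out. PH minus MEF was 0.51 ± 0.34 (adjusted p = 0.571).

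Mgst3 was at 7.17 and 7.83 in MEF, at 10.05, 9.80 and 8.62 in the lines and at 7.63, 7.67 and 9.16 in PH. The lines were above both fibroblast arrays and overlapped PH through PH 3. The iHep minus MEF difference was 1.99 ± 0.57 (adjusted p = 0.080), and it passed without 4a1CK (2.42, adjusted p = 0.0402), without PH 3 (0.0270), with quantile normalization (0.0435) and with array medians subtracted (0.0462). Mgst1, an abundant enzyme of liver microsomes, was at 10.16 and 9.35 in MEF, at 8.83, 6.31 and 11.36 in 4a3, 4a3CK and 4a1CK and at 11.60, 11.62 and 11.88 in PH. The lines spread over more than the distance from MEF to PH. No comparison passed (iHep minus PH -2.87 ± 1.03, adjusted p = 0.147), but without 4a1CK the lines were lower than PH by -4.13 (adjusted p = 0.00984). PH minus MEF, 1.95 ± 1.16 with all groups fitted (adjusted p = 0.508), passed in a fit of MEF and PH alone (1.95, adjusted p = 0.0109) and on MEF 1, MEF 2, PH 1 and PH 2 alone (1.86, adjusted p = 0.0419). The second Mgst1 probe set was at 3.53 to 4.25 on all arrays. Of the 3 MGST genes, 0 were called in PH against MEF with all groups fitted (limma; 0 at an unadjusted p under 0.05). The medians were 0.65 for PH minus MEF (0.27 without PH 3 and 0.99 without MEF 2), 1.99 for iHep minus MEF and 1.34 for iHep minus PH.

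Sulfotransferases were mostly dim. Of the 13 genes, 11 were at or under 4.09 on both MEF arrays, 10 on all 3 lines and 5 on all PH arrays. The UGT genes gave 7, 5 and 2 of 12, the GST genes 2, 2 and 0 of 16. Among the PH arrays, Sult1b1, Sult1c2, Sult2a2, Sult2b1, Sult4a1, Ugt2a3, Ugt3a2 and Gstm6 passed 4.09 on PH 3 alone. That array had the higher median, and the PH counts above are lower through it. On all 8 arrays, 7 members were dim: Sult1c1, Sult1e1, Sult2a8, Sult3a1, Sult6b1, Ugt2a1 and Ugt2b37, and the other 37 passed that value on at least 1 array. The sulfotransferases of estrogen (Sult1e1) and of bile acids and steroids (Sult2a2, Sult2a8) were among those at or near the dim value, reaching 4.30 at most, on PH 3.

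Sult1a1, which sulfonates phenols, was the sulfotransferase with the highest difference. It was at 4.91 and 4.51 in MEF, at 9.97, 7.09 and 6.48 in 4a3, 4a3CK and 4a1CK and at 8.98, 8.67 and 10.29 in PH. Line 4a3 was within the hepatocyte range and the other lines were between the 2 groups. PH exceeded MEF by 4.60 ± 0.93 (adjusted p = 0.0225), a call lost without MEF 1 (0.107), MEF 2 (0.132), PH 1 (0.0581) or PH 3 (0.103). For iHep minus MEF the difference was 3.13 ± 0.93 (adjusted p = 0.0927), and it passed without 4a1CK (3.82, adjusted p = 0.0471). Without 4a3 the lines were lower than PH by -2.53 (adjusted p = 0.0310), against -1.47 ± 0.84 with it (adjusted p = 0.390).

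Sult1d1, an enzyme for catecholamines and other amines, was at 3.10 and 2.99 in MEF, at 4.30, 3.15 and 3.05 in the lines and at 4.19, 4.39 and 8.06 in PH. PH 3 was the array that stood out, and no comparison passed (PH minus MEF 2.50 ± 1.04, adjusted p = 0.269). Sult5a1 was above the dim value on all arrays, at 4.74 to 6.04, and was not called. The median over the 13 SULT genes was 0.32 for PH minus MEF with 1 called, and it was 0.03 without PH 3, 0.50 without PH 2, 0.10 with quantile normalization and 0.04 with array medians subtracted. It was 0.28 for iHep minus MEF with 0 called (limma; 2 higher at an unadjusted p under 0.05). For iHep minus PH it was -0.07 with 0 called (0 at an unadjusted p under 0.05), and its sign turned with quantile normalization (0.01), with array medians subtracted (0.01) and without PH 3 (0.18). Without any 1 of the other PH arrays or the lines it stayed below 0.

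The lines differed from each other in few members. With 1 array each there is no test, and differences of at least 2 were counted. Of the 44 members, 2 passed in 4a3CK against 4a3 (4.55%, against 2.23% of all genes), 2 in 4a1CK against 4a3 (against 1.32%) and 2 in 4a1CK against 4a3CK (against 3.16%). Mgst1 was in all 3 counts: 4a3CK minus 4a3 was -2.53, 4a1CK minus 4a3 was 2.53 and 4a1CK minus 4a3CK was 5.06. Sult1a1 was highest in 4a3, with differences of -2.88 for 4a3CK and -3.49 for 4a1CK, and Gsta4 was highest in 4a3CK, with -2.22 for 4a1CK minus 4a3CK. The hepatocyte marker mean, which includes the transduced Hnf4a, had the order 4a3, 4a3CK and 4a1CK, which Sult1a1 followed and Mgst1 did not.

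Genes that feed and follow conjugation were read from a list of 55, of which 49 were measured. PH exceeded MEF for 14 and was lower for 0 (limma; 20 higher and 1 lower at an unadjusted p under 0.05), with a median difference of 0.55. In the lines 6 rose and 1 fell against MEF, with a median of 0.35. Against PH, 10 were lower in the lines and 0 higher (18 lower and 0 higher at an unadjusted p under 0.05), with a median of -0.32. The shares of all genes called, given above, are the background. At an unadjusted p under 0.05 (limma), 968 of all 17097 genes were higher and 2568 lower in the lines than in PH. The counts of all genes at that threshold for the other comparisons are given above. Fewer were called in PH against MEF without MEF 1 or MEF 2, each of which leaves 1 MEF array. The same held for iHep against MEF, where 3 were called without 4a3. The share of all genes called in those fits is not given here, so the drops are not shown to concern these genes.

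Glutathione supply was the sublist with most calls, 6 of 11 higher in PH than in MEF, 1 of 11 higher in the lines than in MEF and 4 of 11 lower in the lines than in PH. Gclc, the catalytic subunit of the first step of glutathione synthesis, was at 6.34 and 7.65 in MEF, at 11.47, 10.47 and 11.06 in the lines and at 11.25, 11.03 and 11.18 in PH. The lines and the hepatocytes overlapped, and both were clear of the fibroblasts. Gclc rose by 4.01 ± 0.42 in the lines (adjusted p = 0.00106) and by 4.16 ± 0.42 in PH (adjusted p = 0.00059), and both calls held with each array left out. The other 5 genes called in PH were not called in the lines against MEF. Oplah, which returns oxoproline to glutamate, differed by 2.52 ± 0.24 for PH minus MEF (adjusted p = 0.000512) and by -2.73 ± 0.22 for iHep minus PH (adjusted p = 0.000233). Gsr, glutathione reductase, gave 2.59 ± 0.42 (adjusted p = 0.0077, lost without MEF 1 at 0.0617) and -2.33 ± 0.37 (adjusted p = 0.00799). Gclm, Gss and Cbs were also called higher in PH than in MEF, at 2.05, 1.80 and 1.41, and each of these 3 calls was lost without at least 3 of the arrays in turn, MEF 1 among them (adjusted p = 0.0523 to 0.129).

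Of 7 measured conjugate exporters, 3 were called higher in PH than in MEF, 2 higher in the lines than in MEF and 2 lower in the lines than in PH. Abcc5, Abcc6 and Abcg2 were called in none, nor was Abcc1 (PH minus MEF -1.53 ± 0.42, adjusted p = 0.080). Abcc2, the pump of conjugates into bile, was at 4.28 and 4.39 in MEF, at 3.25, 3.21 and 3.17 in the lines and at 8.28, 8.15 and 7.38 in PH. The lines were dim, and their difference from MEF did not pass (-1.13, adjusted p = 0.0582). The Abcc2 difference was 3.60 ± 0.29 for PH minus MEF (adjusted p = 0.000198) and -4.72 ± 0.26 for iHep minus PH (adjusted p = 5.14e-05). Abcc3, the pump into blood, was at 4.81 and 4.98 in MEF, at 6.49, 6.35 and 6.23 in the lines and at 8.73, 9.34 and 8.65 in PH, so that the lines lay between the other groups. It rose by 4.01 ± 0.27 in PH (adjusted p = 8.79e-05) and was lower in the lines than in PH by -2.55 ± 0.24 (adjusted p = 0.000602). The rise of 1.46 ± 0.27 in the lines (adjusted p = 0.0157) was lost without MEF 1, MEF 2 or 4a3 (0.0646 to 0.121). Abcc4 rose by 4.62 ± 0.62 in PH (adjusted p = 0.00286) and by 2.99 ± 0.62 in the lines (adjusted p = 0.0254), the latter lost without MEF 1, MEF 2 or 4a3 (0.0752 to 0.159). For Abcc4 the iHep minus PH difference was -1.63 (adjusted p = 0.122).

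Other genes of the list went different ways. Nnmt, which methylates nicotinamide, was at 8.84 and 7.04 in MEF, at 4.32, 4.52 and 4.55 in the lines and at 8.66, 8.77 and 9.78 in PH. It was lower in all 3 lines than on all other arrays. Nnmt fell by 3.48 on the log2 scale in the lines against MEF (SE 0.53, adjusted p = 0.00698) and was below PH by -4.61 ± 0.47 (adjusted p = 0.000911). Tpmt, thiopurine methyltransferase, rose by 3.13 ± 0.42 in PH (adjusted p = 0.00282). The epoxide hydrolase gene Ephx2 rose in both, by 3.92 ± 0.63 in PH (adjusted p = 0.00783) and 4.14 ± 0.63 in the lines (adjusted p = 0.00725), each lost without MEF 2 (0.0602 and 0.0507). Slc35d1, which carries UDP-glucuronic acid into the endoplasmic reticulum, rose by 2.30 in PH (adjusted p = 0.0236) and by 2.09 in the lines (adjusted p = 0.0360), and both calls were lost without MEF 1, PH 1 or PH 2, among others. Of 8 measured regulators, Nfe2l2, the factor that binds antioxidant response elements, rose by 2.24 in PH (adjusted p = 0.0162, lost without MEF 1, MEF 2 or PH 3). Nfe2l2 was lower in the lines than in PH by -1.56 (adjusted p = 0.0425), a call lost without any 1 array but 4a3CK. Ahr, the receptor for aromatic hydrocarbons, was lower in the lines than in PH by -3.04 (adjusted p = 0.0318, lost without 4a1CK or any PH array). Of the 5 measured genes of mercapturate formation and the 6 of sulfate donor supply, 0 were called in any comparison. In limma at an unadjusted p under 0.05, 1 mercapturate gene was lower in the lines than in PH, 1 sulfate donor gene was higher in PH than in MEF and 1 was lower in the lines than in MEF.

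**Figure D4:**
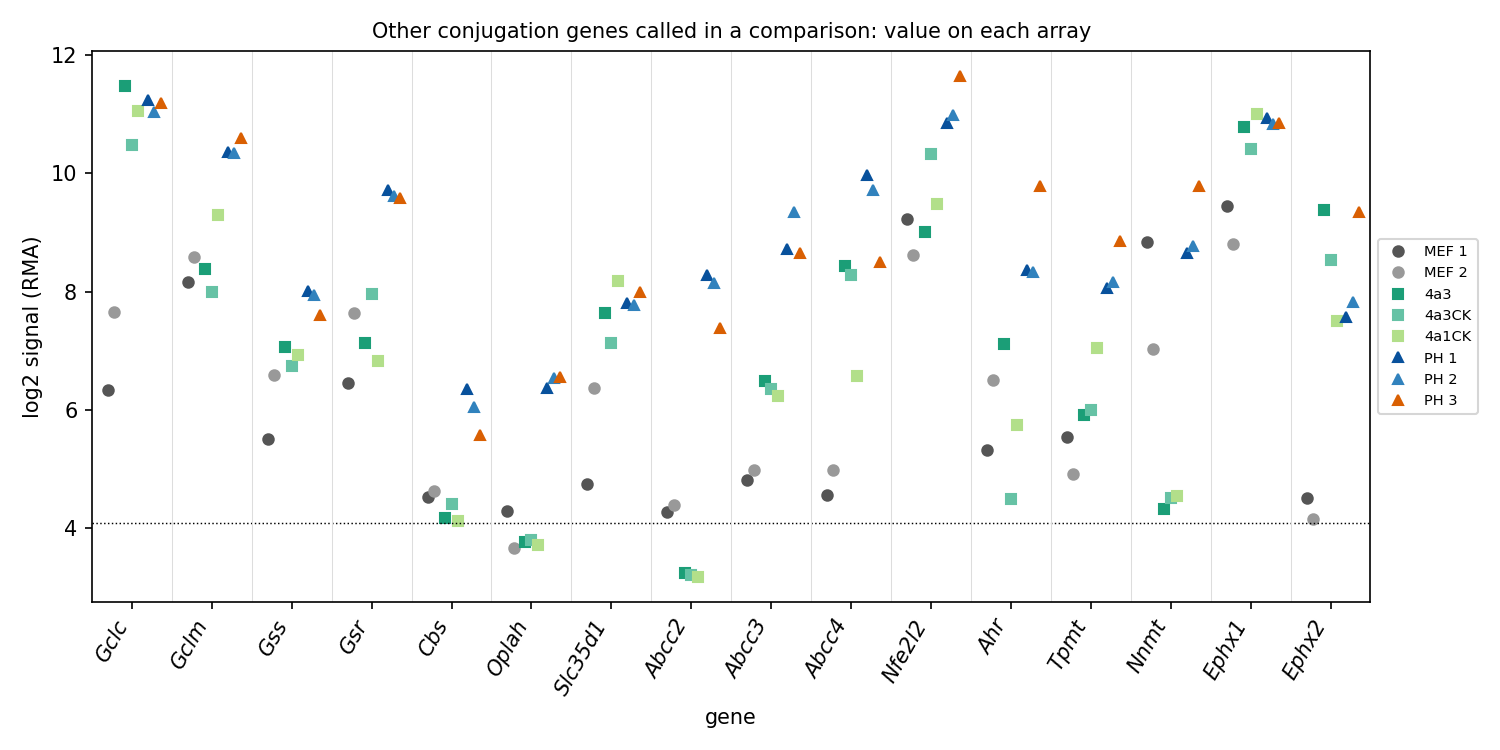
Log2 signal on each array for the 16 other conjugation genes called in at least 1 comparison, with circles for MEF, squares for the iHep lines, triangles for PH and a dotted line at the dim value of 4.09. Gclc is at 10.47 to 11.47 on the iHep and PH arrays against 6.34 and 7.65 in MEF, and Abcc2 is at 3.17 to 3.25 in the lines against 7.38 to 8.28 in PH.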

How the data were processed

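Total RNA of 8 samples was hybridized to 8 mouse 3' arrays. Per the submitters' processing notes, which name RMA and Partek without versions, the authors deposited normalized log2 values per probe set, and these were used unchanged. Whether the arrays were normalized in 1 run is not given in the sources used here. Of 45141 probe sets, 28898 had 1 gene symbol, 551 several and 15692 none, and 104 were controls. For the 7180 genes with over 1 probe set, the one with the highest mean was kept, also for 12 of the 44 members (58 probe sets). All 44 symbols matched RefSeq, and 27 more RefSeq genes of these families were not measured by a 1-symbol probe set. A model of 3 groups on all 8 arrays was fitted with limma 3.58.1 in R 4.3.3 (5 residual degrees of freedom), two-sided, with Benjamini-Hochberg adjustment over 17097 genes, and was tested on simulated data. The number of arrays limits the precision, and errors pool the spread of all groups, line differences included. Values per array are given for members called without overlap or differing by at least 4. Some others were named after their values were seen. From the list of other conjugation genes, those called may be named. Members, lists and alternatives were chosen with earlier results of these data known. Promoters are RefSeq windows of 300 bases, found for 39 members (49 windows), aligned with Biopython 1.88. Tables and plots used Python 3.11.15, pandas 2.3.3 and matplotlib 3.10.9. Alternatives covered probe sets, dim genes, scaling, variance, the arrays fitted, thresholds, accession ranges, pairing and each array left out.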

Additional observations from a re-analysis of the deposited data

Results flagged for a closer look

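For Gsto1, Gstt2 and Ugt2b5 the PH arrays lay on one side of both MEF arrays and the lines on the other, and PH and the lines differed in the limma fit. The iHep minus PH difference was 1.61 for Gsto1, -3.87 for Gstt2 and -4.42 for Ugt2b5. None of the 3 passed in the lines against MEF (adjusted p = 0.341, 0.433 and 0.720), and Gsto1 did not pass in PH against MEF (0.0857). All MEF and line values of Gstt2 and Ugt2b5 were dim and have no order.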

How the results depend on the processing

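Of 28 calls of members, each tried in 17 to 21 alternatives, 14 held in every one, and 0 reversed. They were Gstp3, Gstt2, Ugt2b34, Ugt2b35 and Ugt2b5 in PH against MEF, Mgst2 in iHep against MEF, and Gsto1, Gstp3, Gstt1, Gstt2, Mgst2, Ugt2b34, Ugt2b35 and Ugt2b5 in iHep against PH. Main counts of members called were 12, 3 and 13 for PH minus MEF, iHep minus MEF and iHep minus PH. Without probe sets marked as binding several transcripts, which leaves 37 members, PH against MEF gave 7. At an adjusted p under 0.01 PH against MEF gave 6 and iHep against PH 8. With single arrays left out the ranges were 5 to 12, 1 to 5 and 9 to 14. With PH 1 and PH 2 averaged, the counts were 9, 2 and 9. For the other conjugation genes (14, 7 and 10 called), the counts were 6 in iHep against PH without probe sets binding several transcripts, 4 in iHep against MEF with array medians subtracted, and 9, 3 and 6 at an adjusted p under 0.01. Their ranges with single arrays left out were 8 to 17, 3 to 8 and 7 to 13. Between lines, the mean of all probe sets left 1 member each for 4a3CK and 4a1CK against 4a3, and leaving out probe sets that bind several transcripts left 0, 0 and 1. MEF and PH share replicate numbers 1 and 2 with no stated meaning, and same-numbered deviations correlated at -0.197 across 17097 genes. With the replicate block on those 4 arrays, 10 members and 8 other conjugation genes were called, against 13 and 15 on the same arrays without the block, and 12 and 13 with the pairing crossed. The crossed and unblocked fits were chosen after seeing the data. The cause of these changes was not tested, beyond fewer genes or arrays by construction. Counts in the alternatives are given without the share of all genes called in the same fit. They do not show whether the members changed more than other genes. Signals at or under 4.09 give no order.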
